A study of Mus musculus with 32 samples.

Results

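A set of 10 genes of the collagen and glycoprotein scaffold around cells was followed in mouse spinal cord, in WT and G93A animals with and without the nitrone compound OKN-007. They were taken by symbol from the count table of the series, and all 10 of the listed genes were present among its 42524 genes: the fibrillar collagen chains Col1a1, Col1a2 and Col3a1, the basement membrane chains Col4a1 and Col4a2, the type VI chains Col6a1 and Col6a3, fibronectin (Fn1), and the small leucine-rich proteoglycans decorin (Dcn) and lumican (Lum). RNA from the spinal cord of 32 mice had been sequenced, 4 mice in each of 8 groups: WT untreated, WT OKN-007, G93A untreated and G93A OKN-007, each at 90 and at 155 days by the labels. The G93A mice carried the human SOD1 G93A transgene of the B6-Tg(SOD1-G93A)1Gur/J strain, a model of amyotrophic lateral sclerosis in which the mutant enzyme superoxide dismutase is expressed from its own human promoter, and the WT mice were C57BL/6J littermates of the same age. OKN-007 was given in the drinking water, and the dose of the sequenced mice is not named in the labels. The study's methods give the earlier age as 95 days and describe the experimental mice as predominantly female. They place the cohorts killed at 95 or 155 days at the higher of the doses studied, and report females only at that dose. The mice of each age were killed at that age, so that every comparison between ages is also a comparison between cohorts, and age and cohort cannot be told apart.

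Fibrillar collagens assemble into the tensile fibres of connective tissue, and in the healthy central nervous system they are largely restricted to the meninges, the adventitia of large vessels and the nerve roots. Type IV collagen forms the network of the basement membrane that lies under the endothelium and against the astrocyte endfeet, and type VI collagen forms beaded filaments that link basement membranes to the surrounding matrix. Fibronectin is a dimeric glycoprotein bound by integrins, and decorin and lumican bind collagen fibrils and regulate their width. In the spinal cord these transcripts come mainly from meningeal and perivascular fibroblasts, endothelial and mural cells, with Schwann cells and the endoneurial fibroblasts of the roots as neighbours of the dissected tissue.

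The table held whole-number reads per gene, and each mouse had between 19701722 and 30138257 counted reads, so that 3 counts in the smallest library equalled 0.152 CPM (counts relative to the library total, on the usual CPM scale, with TMM factors over the 32 mice). At 155 days the microglial marker sum was 339 to 443 CPM in the WT mice and 1510 to 2640 CPM in the G93A mice. The motor neuron marker sum was 367 to 426 CPM in WT mice of that age and 179 to 268 CPM in G93A mice. Mouse Sod1 was at 237 to 404 CPM in the 16 G93A mice and 241 to 354 CPM in the 16 WT mice, which does not separate the genotypes. The transgene is human, and whether its reads were counted in the mouse gene was not tested. The marker list of oligodendrocytes, which includes Mbp and Mog, summed to 20100 to 53000 CPM, so the central nervous tissue named by the labels was present in every library. This sum did not overlap between the ages, at 28700 to 53000 CPM at 90 days and 20100 to 25300 CPM at 155 days. What part this had in the comparisons between ages was not tested.

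A few libraries stood apart in tissue markers. WT untreated replicate 3 and G93A untreated replicate 10, both at 90 days, had the highest and the second highest sum of 6 Schwann cell markers, with 1160 and 234 CPM against 21.1 to 73.2 CPM in the other 30 libraries. Periaxin (Prx), a Schwann cell protein of the myelin sheath, was at 245 CPM and 42.6 CPM in these libraries and at no more than 10.9 CPM elsewhere. These libraries ranked first and second in 3 of the 6 markers. Egr2 was highest in replicate 3 (8.15 CPM) but ranked 10 of 32 in replicate 10 (2.41 CPM). Cdh19 (33.9 and 19.2 CPM, against 18.1 to 45.9 CPM elsewhere) and Artn (0.372 and 0.433 CPM, against 0.129 to 0.951 CPM) did not set them apart. Their name below, libraries with Schwann cell transcripts, therefore rests on part of the list. Liver markers, led by albumin (Alb), summed to 212 CPM in G93A untreated replicate 12 and 150.5 CPM in G93A OKN-007 replicate 15 at 155 days, and to 89.9 CPM in WT OKN-007 replicate 6 at 90 days, with a median of 3.21 CPM over all 32. Members whose call changed without these libraries are given both ways.

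Per kilobase of exon, the members spanned a wide range of levels in WT untreated mice of 155 days. Col4a2 was the highest, with 10.4 ± 1.98 CPM per kilobase (SD, n = 4), and stood apart from Col4a1 at 5.65 ± 1.27 and Col6a1 at 5.29 ± 1.35 CPM per kilobase, whose ranges overlapped. Fn1 followed at 3.21 ± 0.498 and Col1a2 at 2.38 ± 0.299 CPM per kilobase, again with overlapping ranges. Dcn (1.40 ± 0.159) and Col1a1 (0.928 ± 0.138) each stood apart from their neighbours in that order. Col3a1, Col6a3 and Lum were the lowest, at 0.493, 0.454 and 0.445 CPM per kilobase, and did not differ beyond their spread. In G93A untreated mice of that age the order was led instead by Fn1, with 11.4 ± 2.14 CPM per kilobase, above Col4a2 at 7.54 ± 1.35. Lum was the thinnest measurement, with 9 to 111 counts per mouse, while Col4a2 had 988 to 2882.

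**Figure D1:**
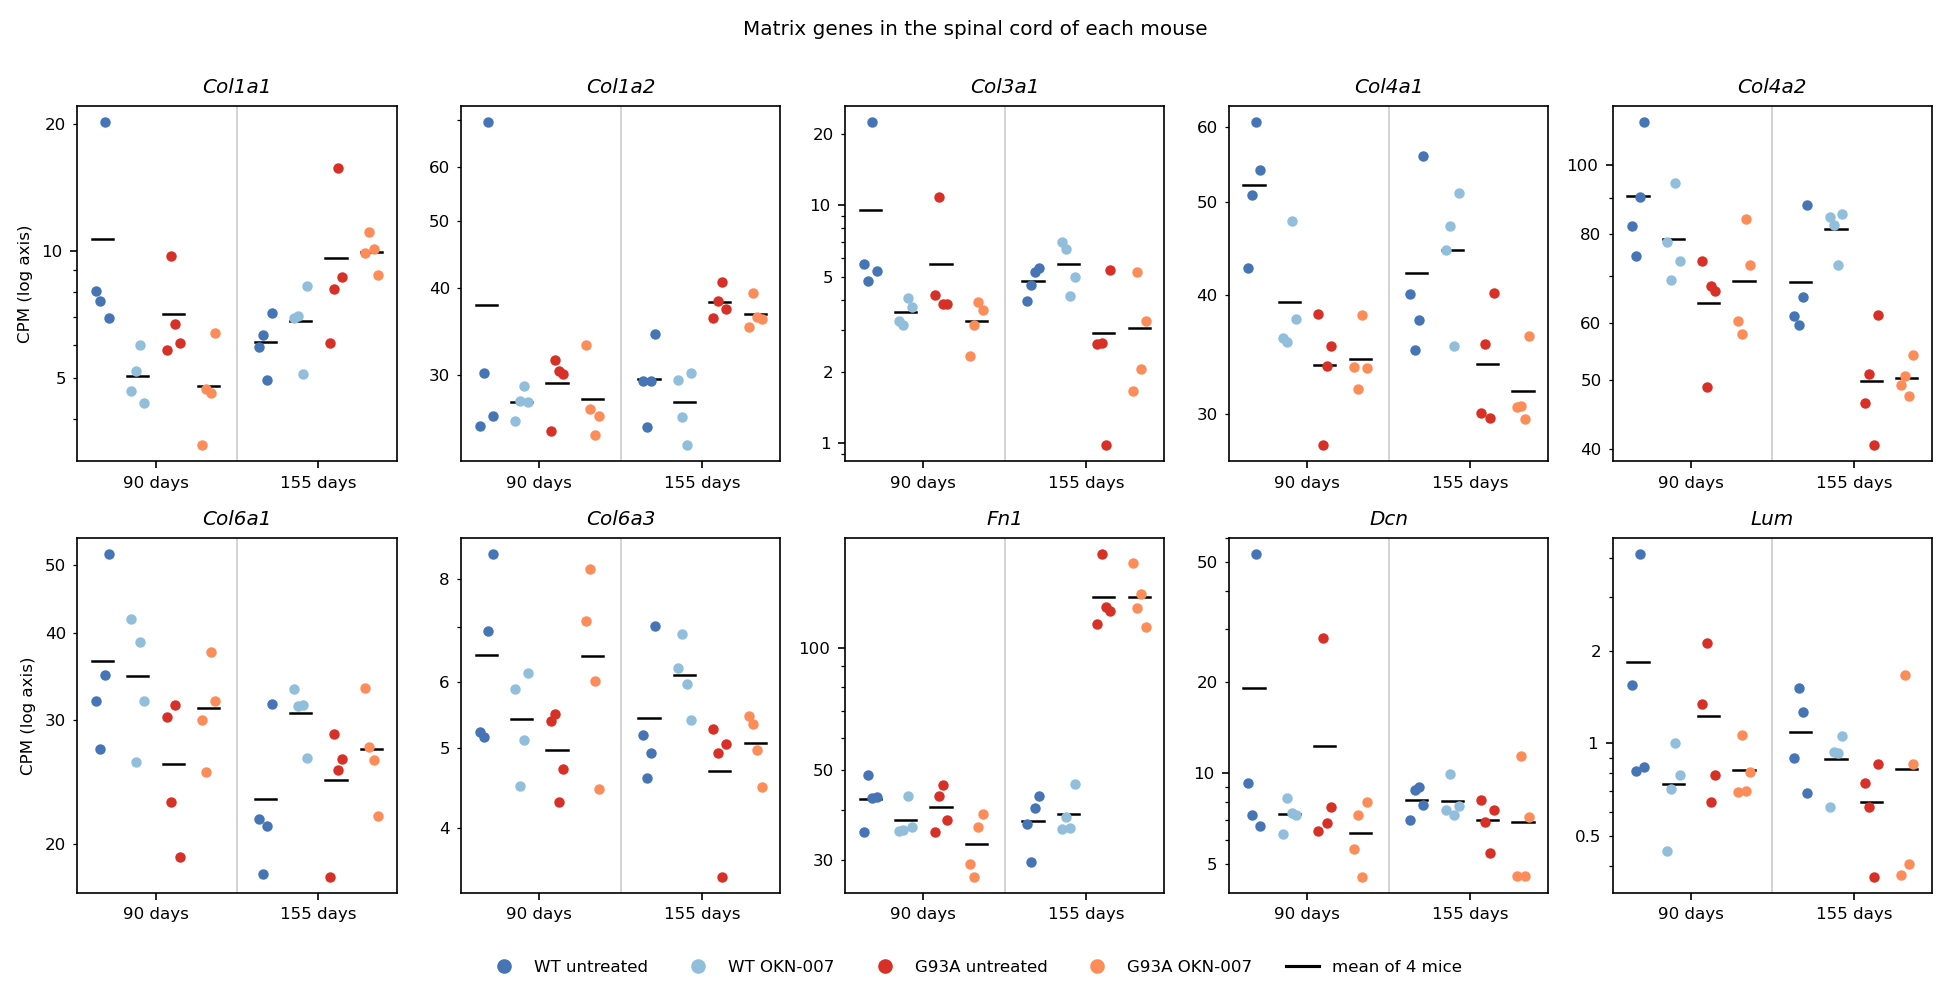
Level of each of the 10 matrix genes in CPM (log axis) in every mouse, by age, genotype and treatment, with the mean of 4 mice as a black line. Fn1 lay between 112 and 170 CPM in the 8 G93A mice of 155 days and between 27.3 and 48.5 CPM in the other 24 mice, and the single high points of Col1a1, Col1a2, Col3a1, Dcn and Lum at 90 days in WT untreated mice belong to replicate 3.

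Fibronectin showed the largest difference between genotypes among the members. Fn1 (ENSMUSG00000026193, chr1:71585520-71653200 of GRCm38, minus strand) was at 36.8, 29.7, 40.3 and 43.2 CPM in WT untreated mice of 155 days and at 115, 170.3, 126 and 123 CPM in G93A untreated mice. With OKN-007 it was at 35.8, 38.4, 36.0 and 46.2 CPM in WT mice and at 162, 125, 136 and 112 CPM in G93A mice. Every G93A mouse of this age was above every WT mouse, in both treatment groups. The level of Fn1 rose 3.59-fold in untreated mice (log2 fold change 1.84 ± 0.141, SE, adjusted p = 6.83e-09, edgeR quasi-likelihood test with Benjamini-Hochberg adjustment) and 3.50-fold in treated mice (1.81 ± 0.141, adjusted p = 6.7e-09). At 90 days the same gene was at 35.3, 48.5, 42.6 and 43.1 CPM in WT untreated mice and at 35.2, 43.2, 46.1 and 37.8 CPM in G93A untreated mice, with overlapping groups and a log2 fold change of -0.06 ± 0.122. Of the 10 alternative analyses and 16 fits that each left out 1 mouse, all called the rise of Fn1 at 155 days, with a log2 fold change between 1.67 and 1.94 in untreated mice.

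In tissue RNA, more cells of a type and more RNA per cell cannot be told apart, and several cell type markers moved together with Fn1. All 10 microglial markers tested were higher in G93A untreated mice of 155 days, with Aif1 at 32.3 ± 10.2 against 5.04 ± 1.10 CPM and Csf1r at 176 ± 34.5 against 47.8 ± 3.86 CPM. Of the 8 astrocyte markers 6 were higher, and their sum was 15500 to 19100 CPM in G93A mice against 6240 to 7210 CPM in WT mice. The 9 markers of border macrophages, such as Mrc1 and Cd163, summed to 19.4 to 28.7 CPM against 8.40 to 12.6 CPM, and 4 of the 8 tested were higher, though Mrc1 (adjusted p = 0.0748) and Cd163 (adjusted p = 0.585) did not pass the test. Fibroblast markers did not separate the genotypes: their sum was 27.5 to 38.9 CPM in G93A and 28.2 to 31.4 CPM in WT mice of 155 days, and 1 of the 11 tested was higher. The part of these cell types in the rise of Fn1 was not tested. In the 2 libraries of this age with liver transcripts, Fn1 was at 123 and 136 CPM, inside the range of the other G93A mice.

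**Figure D2:**
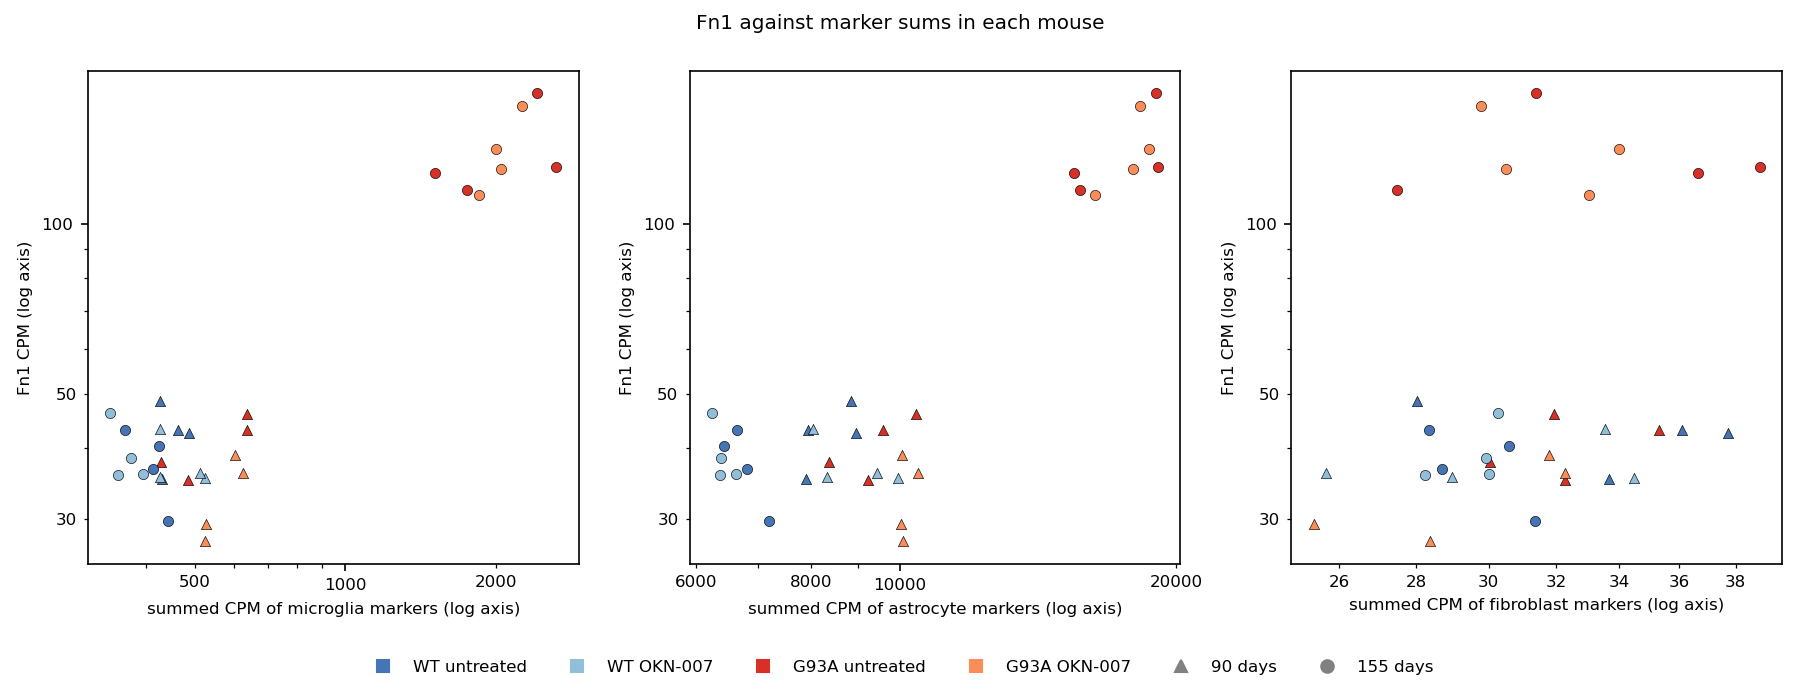
Fn1 in CPM (log axis) against the summed CPM of microglial, astrocyte and fibroblast markers (log axes) in each of the 32 mice, coloured by genotype and treatment, with triangles at 90 days and circles at 155 days. The 8 G93A mice of 155 days form a group of their own on the microglial axis (1510 to 2640 CPM) and on the astrocyte axis (15500 to 19100 CPM). On the fibroblast axis (27.5 to 38.9 CPM) they overlap the other mice.

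The chains of type I collagen rose more modestly at 155 days. Col1a2 (ENSMUSG00000029661, chr6:4504814-4541544, plus strand) was at 29.4, 25.2, 29.4 and 34.3 CPM in WT untreated mice and at 36.3, 38.3, 40.8 and 37.4 CPM in G93A untreated mice. In treated mice it was at 29.5, 26.1, 23.7 and 30.2 CPM in WT and 35.2, 39.4, 36.4 and 36.1 CPM in G93A. The groups did not overlap in either treatment, and the spread within each was narrow. Col1a2 rose 1.30-fold in untreated mice (log2 fold change 0.38 ± 0.0899, adjusted p = 0.00232) and 1.38-fold in treated mice (0.46 ± 0.0901, adjusted p = 0.000425). A fit of all 32 mice, which takes its spread from both ages, gave 0.37 with adjusted p = 0.127 in untreated and 0.43 with adjusted p = 0.0711 in treated mice.

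Its partner chain varied more between mice. Col1a1 (ENSMUSG00000001506, chr11:94936224-94953042, plus strand) was at 5.92, 6.33, 4.97 and 7.15 CPM in WT untreated mice of 155 days and at 6.05, 8.15, 15.7 and 8.69 CPM in G93A untreated mice. Among treated mice it was at 6.94, 7.01, 5.11 and 8.26 CPM in WT and 9.90, 11.1, 10.1 and 8.79 CPM in G93A, with no overlap. The untreated groups overlapped, and 1 of the G93A mice, replicate 11, was far above the other 3. Col1a1 rose 1.60-fold in untreated mice (log2 fold change 0.67 ± 0.218, adjusted p = 0.0193) and 1.5-fold in treated mice (0.58 ± 0.215, adjusted p = 0.0372). Without replicate 11 the untreated change was 0.34 ± 0.163 (adjusted p = 0.121), and without WT replicate 3 it was 0.59 ± 0.237 (adjusted p = 0.0649). The treated call was lost when any of 6 mice of its groups was left out (adjusted p = 0.0638 to 0.12) and without the libraries with liver transcripts (0.55 ± 0.24, adjusted p = 0.0802), while the change averaged over treatments, 0.63 ± 0.153, kept its call in each of the 16 fits that left out 1 mouse. A fit of all 32 mice gave adjusted p = 0.0547 in untreated and 0.108 in treated mice, and a fit of only the untreated groups compared gave 0.0574.

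The third fibrillar chain went the other way. Col3a1 (ENSMUSG00000026043, chr1:45311538-45349706, plus strand), the collagen of pliable tissues and vessel walls, was at 3.95, 4.64, 5.27 and 5.48 CPM in WT untreated mice of 155 days and at 2.62, 2.65, 0.984 and 5.35 CPM in G93A untreated mice. In treated mice it was at 7.02, 6.58, 4.18 and 5.02 CPM in WT and 1.66, 5.23, 2.06 and 3.26 CPM in G93A. In each treatment 3 of the 4 G93A mice were below all WT mice, and the other lay among them. The log2 fold change was -0.70 ± 0.366 in untreated mice (adjusted p = 0.137) and -0.87 ± 0.362 in treated mice (adjusted p = 0.0614), so neither passed, while the average over treatments fell by 0.79 on the log2 scale (SE 0.257, adjusted p = 0.0144). The high untreated mouse was replicate 12, a library with liver transcripts, and without it the change was -1.20 ± 0.351 (adjusted p = 0.0105). The high treated mouse was replicate 14, and without it the change was -1.29 ± 0.369 (adjusted p = 0.0108). Its Schwann cell marker sum was the highest of its age (73.2 CPM), but far below the 1160 and 234 CPM of the 90-day libraries named above. What part this had was not tested. Replicates 12 and 14 were each the highest G93A mouse of their group, so leaving either out enlarges the fall by construction. These fits are therefore no support for a fall. Leaving out untreated replicate 11 or 12, which enter the shared estimate of spread only, also brought the treated change past the threshold (adjusted p = 0.0232 and 0.0283).

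Of the 10 members 6 were found in a RefSeq table of promoter windows (GRCm38.p6), which run from 250 bases before to 50 bases after each annotated start. The windows of Col1a2 (chr6:4505368-4505667, plus strand) and Col3a1 (chr1:45311288-45311587, plus strand) are shown because the log2 fold changes of these fibrillar chains had opposite signs. That of Col3a1 passed only when averaged over treatments, and any link between the windows and the levels was not tested. Capitals mark CCAAT or its reverse complement ATTGG, a short element known from the proximal promoters of the type I collagen genes.
Col1a2: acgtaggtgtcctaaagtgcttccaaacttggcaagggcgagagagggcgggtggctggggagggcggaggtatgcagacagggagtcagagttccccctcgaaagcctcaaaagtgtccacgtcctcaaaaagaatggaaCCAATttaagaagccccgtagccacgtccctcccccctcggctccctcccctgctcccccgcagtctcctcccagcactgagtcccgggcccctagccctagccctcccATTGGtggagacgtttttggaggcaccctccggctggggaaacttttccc
Col3a1: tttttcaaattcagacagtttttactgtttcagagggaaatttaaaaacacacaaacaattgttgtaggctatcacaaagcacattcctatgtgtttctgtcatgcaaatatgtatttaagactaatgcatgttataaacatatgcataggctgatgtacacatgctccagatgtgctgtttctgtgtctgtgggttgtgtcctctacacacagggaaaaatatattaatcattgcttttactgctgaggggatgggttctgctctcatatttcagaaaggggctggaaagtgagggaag
The Col1a2 window held 2 such matches and 2 of GGGCGG or CCGCCC, the GC box. The Col3a1 window held neither, and 1 match of TATAAA or TTTATA, at -117. Whether any of these matches acts as a promoter element was not tested. Of 32851 promoter windows in the same source, 37.4% held CCAAT on either strand, 35.7% the GC box and 13.6% the TATA element.

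The basement membrane chains were lower in G93A mice. Col4a1 (ENSMUSG00000031502, chr8:11198423-11312826, minus strand) and Col4a2 (ENSMUSG00000031503, chr8:11312805-11449287, plus strand) encode the chains of the common type IV trimer, lie head to head and are transcribed in opposite directions from a shared start region. Their gene models overlap by 22 bases, and reads there can be assigned to the right gene only with a strand-aware count, which the sources used here do not state. The promoter windows of both (chr8:11312777-11313076 for Col4a1 and chr8:11312555-11312854 for Col4a2) are shown because these neighbours moved together, with the 78 bases that they share in capitals, read on opposite strands.
Col4a1: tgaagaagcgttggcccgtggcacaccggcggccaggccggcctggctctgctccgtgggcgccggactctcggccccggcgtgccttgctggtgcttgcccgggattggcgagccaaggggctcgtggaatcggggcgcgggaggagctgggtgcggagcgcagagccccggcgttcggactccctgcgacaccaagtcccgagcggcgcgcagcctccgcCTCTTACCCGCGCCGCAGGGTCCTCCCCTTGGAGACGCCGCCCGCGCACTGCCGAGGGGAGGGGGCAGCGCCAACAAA
Col4a2: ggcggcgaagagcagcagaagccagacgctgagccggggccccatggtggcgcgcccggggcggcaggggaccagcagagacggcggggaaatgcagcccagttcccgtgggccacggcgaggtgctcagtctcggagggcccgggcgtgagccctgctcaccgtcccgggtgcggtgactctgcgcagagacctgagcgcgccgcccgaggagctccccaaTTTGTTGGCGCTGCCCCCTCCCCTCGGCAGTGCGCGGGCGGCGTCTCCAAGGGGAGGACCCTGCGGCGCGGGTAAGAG
Each window held 1 match of CCAAT on either strand and no TATA element.

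Col4a2 was at 61.5, 59.7, 65.4 and 88.0 CPM in WT untreated mice of 155 days and at 46.5, 51.0, 40.5 and 61.6 CPM in G93A untreated mice. The treated mice were at 84.8, 82.6, 72.5 and 85.6 CPM in WT and at 49.2, 50.6, 47.5 and 54.1 CPM in G93A. The treated groups did not overlap, and in the untreated groups only G93A replicate 12 reached the WT range. Col4a2 fell by 0.45 on the log2 scale in untreated mice (SE 0.121, adjusted p = 0.00645) and by 0.66 in treated mice (SE 0.121, adjusted p = 0.000241).

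Col4a1 was at 40.1, 35.0, 37.6 and 56.0 CPM in WT untreated mice of 155 days and at 30.0, 35.5, 29.7 and 40.1 CPM in G93A untreated mice. In treated mice it was at 44.6, 47.3, 35.4 and 51.1 CPM in WT and at 30.5, 30.5, 29.6 and 36.2 CPM in G93A. The untreated groups overlapped, and in the treated groups 3 of the 4 G93A mice were below every WT mouse. Its log2 fold change was -0.30 ± 0.139 in untreated mice (adjusted p = 0.0935). In treated mice it fell by 0.46 on the log2 scale (SE 0.139, adjusted p = 0.0125), and averaged over treatments by 0.38 (SE 0.0984, adjusted p = 0.00296). Without WT replicate 4, the highest of its group, the untreated change was -0.12 ± 0.121. Without G93A replicate 12, also the highest of its group, that change was -0.40 and passed (adjusted p = 0.0347). It also passed without all libraries with liver transcripts, replicate 12 among them (adjusted p = 0.042). Leaving out the highest G93A mouse enlarges a fall by construction, so these fits are no support for a fall. Without WT OKN-007 replicate 8 the treated change had adjusted p = 0.0515.

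The level of caudal Hox genes differed between the genotypes at this age. The 14 caudal Hox genes, which mark the lower part of the cord, summed to 60.2 to 204 CPM in G93A and 228 to 318 CPM in WT mice of 155 days, and 8 of the 13 tested were lower in G93A untreated mice. These sums did not overlap, so a score of these genes is largely tied to genotype at this age. A call lost or kept with the score as a covariate therefore cannot show what cord position contributed. With a caudal Hox score as a covariate, the untreated change of Col4a2 was -0.29 ± 0.173 (adjusted p = 0.235) and the treated change of Col4a1 was -0.31 ± 0.187 (adjusted p = 0.239). The averaged change of Col3a1 was -0.19 ± 0.406 (adjusted p = 0.752) with that covariate. Col4a1 averaged over treatments was at -0.22 ± 0.167 (adjusted p = 0.333). Fn1, Col1a1 and Col1a2 kept their calls with it in both treatments, and so did the treated change of Col4a2, while the untreated change of Col1a1 moved to 1.21 ± 0.24. Endothelial markers, led by Cldn5, Pecam1 and Cdh5, summed to 306 to 381 CPM in G93A and 331 to 407 CPM in WT mice of this age, with 1 of 13 lower and 0 higher in untreated mice. Mural cell markers summed to 187 to 245 CPM and 193 to 239 CPM, with 6 of 11 higher and 1 lower. The part of these cell types in the type IV collagen result was not tested.

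The type VI chains gave no difference between genotypes past the threshold at 155 days. Col6a1 (ENSMUSG00000001119, chr10:76708792-76726168, minus strand) ranged from 17.9 to 33.4 CPM in the 8 G93A mice and from 18.1 to 33.3 CPM in the 8 WT mice, with a log2 fold change of 0.10 ± 0.163 in untreated and -0.13 ± 0.161 in treated mice. Col6a3 (ENSMUSG00000048126, chr1:90765923-90843971, minus strand) ranged from 3.49 to 5.46 CPM in G93A and from 4.6 to 7.02 CPM in WT mice. Its change was -0.20 ± 0.154 in untreated mice (adjusted p = 0.32) and -0.22 ± 0.108 averaged over treatments (adjusted p = 0.0943). The ranges overlapped almost fully for Col6a1 and in large part for Col6a3.

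Neither proteoglycan passed the test at 155 days. Dcn (ENSMUSG00000019929, chr10:97479609-97518143, plus strand) was at 7.0, 8.81, 9.02 and 7.87 CPM in WT untreated and 8.16, 6.87, 5.45 and 7.57 CPM in G93A untreated mice, a log2 fold change of -0.20 ± 0.225 (adjusted p = 0.505). With OKN-007 it was at 7.52, 9.93, 7.24 and 7.77 CPM in WT and 4.58, 11.4, 4.56 and 7.17 CPM in G93A. The high treated G93A mouse was again replicate 14, and without it the treated change was -0.57 ± 0.178 (adjusted p = 0.0179). This mouse was the highest of its group for Dcn, and for Lum below, so leaving it out enlarges a fall by construction. Lum (ENSMUSG00000036446, chr10:97565128-97572703, plus strand) was between 0.369 and 1.67 CPM in G93A and between 0.62 and 1.52 CPM in WT mice of this age. Its log2 fold change was -0.71 ± 0.412 in untreated mice (adjusted p = 0.187) and -0.08 ± 0.406 in treated mice, and without the same replicate 14 the averaged change was -0.71 ± 0.254 (adjusted p = 0.0267). With the caudal Hox covariate the averaged change was 0.02 ± 0.266 for Dcn (adjusted p = 0.957) and -0.0019 ± 0.539 for Lum (adjusted p = 0.998).

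Counted together, 4 of the 10 members differed between G93A untreated and WT untreated mice at 155 days, where 39.5% of the 18675 genes tested did. Higher in G93A were 3 of them (Fn1, Col1a1 and Col1a2; 21.3% of all genes) and lower 1 (Col4a2; 18.2%). The groups lay wholly above for 2 members (Fn1 and Col1a2; 17.4% of all genes) and wholly below for 0 (15.3%). Between G93A OKN-007 and WT OKN-007 mice 5 of 10 differed, against 41.5% of all genes, with the same 3 higher (23.3%) and 2 lower (Col4a1 and Col4a2; 18.2%). In that comparison 3 members lay wholly above (Fn1, Col1a1 and Col1a2; 22.6%) and 1 wholly below (Col4a2; 21.9%). Averaged over treatments 6 of 10 passed, against 54.7% of all genes, 3 higher (28.8%) and 3 lower (Col3a1, Col4a1 and Col4a2; 25.8%). The members' shares lay close to these backgrounds. The median log2 fold change of the members was -0.20 in untreated mice, against a median near 0 (0.000155) for all genes, and their values ranged from -0.71 to 1.84.

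**Figure D3:**
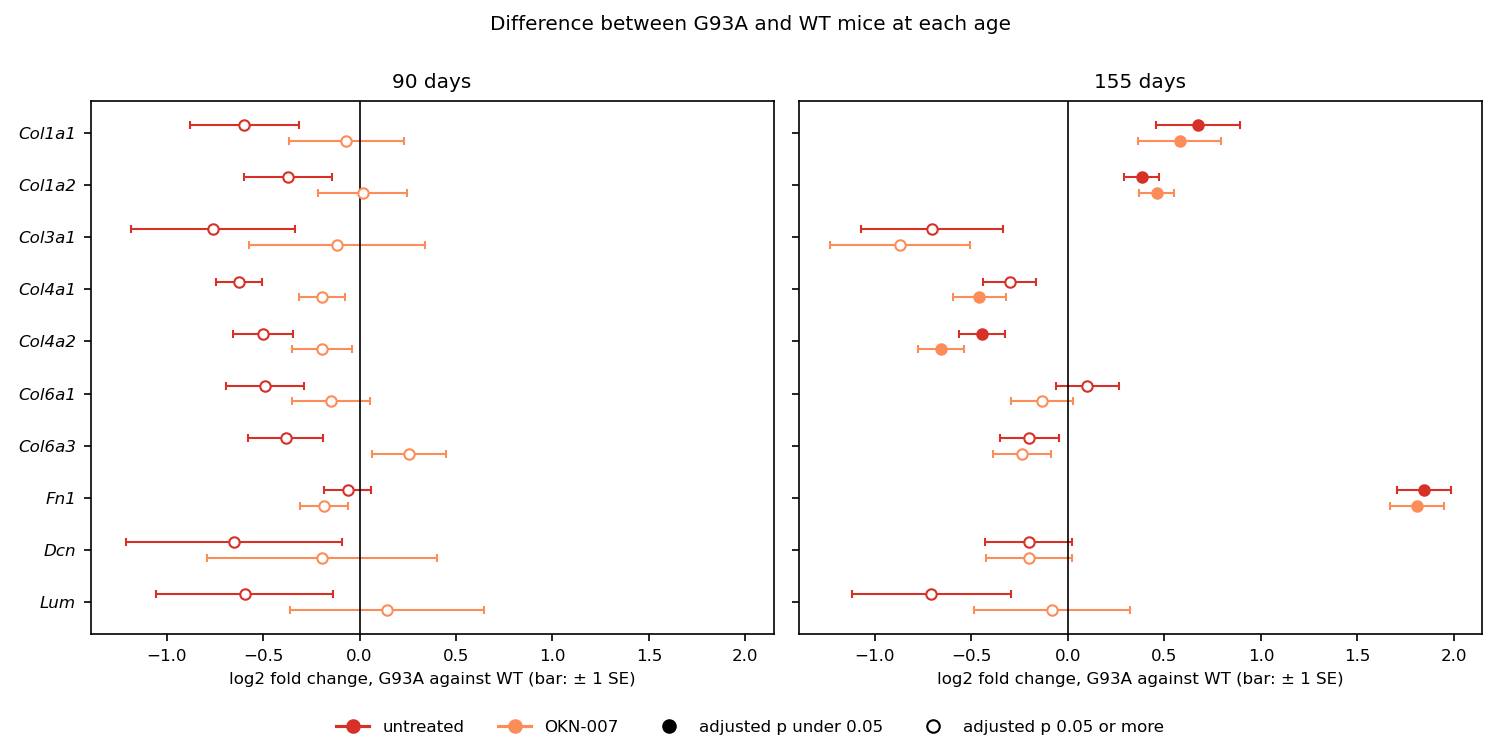
Log2 fold change of G93A against WT mice (bars, ± 1 SE, 4 mice in each group) for each matrix gene at 90 and 155 days, in untreated and in OKN-007 mice, with filled points at an adjusted p under 0.05. At 155 days Fn1 (1.84 and 1.81), Col1a1 and Col1a2 lay to the right of 0 and Col4a1 and Col4a2 to the left in both treatments, and no point at 90 days is filled.

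At 90 days 0 of the 10 members passed in any comparison of genotypes by the quasi-likelihood test. Between G93A untreated and WT untreated mice 0% of 18899 genes passed, and 4 members had an unadjusted p under 0.05 (Col1a1, Col4a1, Col4a2 and Col6a1, all lower in G93A), as had 5.96% of all genes. Col4a1 was at 42.6, 50.9, 60.7 and 54.0 CPM in WT untreated mice of 90 days and at 38.1, 27.8, 33.7 and 35.4 CPM in G93A untreated mice, with no overlap. Its log2 fold change of -0.62 ± 0.117 had an unadjusted p of 4.36e-05 and an adjusted p of 0.275 by edgeR's quasi-likelihood test, and 0.00276 by DESeq2's Wald test. Col4a2 was at 82.3, 74.7, 90.3 and 115 CPM in WT and at 73.5, 48.8, 67.7 and 66.6 CPM in G93A, also without overlap (-0.50 ± 0.154, adjusted p = 0.794). Of all genes 1.2% lay wholly below in this comparison. Both chains were therefore lower in each G93A untreated mouse than in every WT untreated mouse of 90 days. No gene passed the main test in this comparison, and at 155 days the untreated groups overlapped for both chains. Between G93A OKN-007 and WT OKN-007 mice of 90 days, 0% of genes and 0 members passed (0 with an unadjusted p under 0.05, and 0 by DESeq2), with Col4a1 at -0.19 ± 0.117 and Col4a2 at -0.19 ± 0.154. Averaged over treatments 0.0265% of genes passed and none of the members, with Col4a1 at -0.41 ± 0.0829 (adjusted p = 0.107).

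The WT untreated and G93A untreated groups of 90 days each held 1 of the libraries with Schwann cell transcripts, and several members were highest there. In WT untreated replicate 3 Dcn was at 53.1 CPM, against 9.28, 7.29 and 6.67 CPM in the other mice of its group. Col3a1 was at 22.4 against 5.67, 4.81 and 5.31 CPM, Col1a1 at 20.2 against 8.03, 7.63 and 6.95 CPM, and Col1a2 at 69.7 against 25.3, 30.2 and 26.1 CPM. This library ranked first of all 32 in 6 of the 10 members, namely Col1a1, Col1a2, Col3a1, Col4a1, Dcn and Lum, and was unremarkable in Fn1 with 42.6 CPM.

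In G93A untreated replicate 10 Dcn was at 28.0 CPM, against 6.46, 6.83 and 7.74 CPM in its group, and Col3a1 at 10.9 against 4.19, 3.87 and 3.85 CPM. These libraries ranked first and second in 3 members, Col3a1, Dcn and Lum, while Col4a1 in replicate 10 was the lowest of all 32 at 27.8 CPM. Without them, Dcn was at 7.75 ± 1.36 CPM in WT untreated and 7.01 ± 0.66 CPM in G93A untreated mice of 90 days (SD, n = 3), in place of 19.1 ± 22.7 and 12.3 ± 10.5 CPM. Col4a1 then was at 49.2 ± 5.89 and 35.7 ± 2.25 CPM, a log2 fold change of -0.47 ± 0.119 (adjusted p = 1.0), and 0 members passed at 90 days. What part Schwann cells or other cells of the nerve roots had in these values was not tested.

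**Figure D4:**
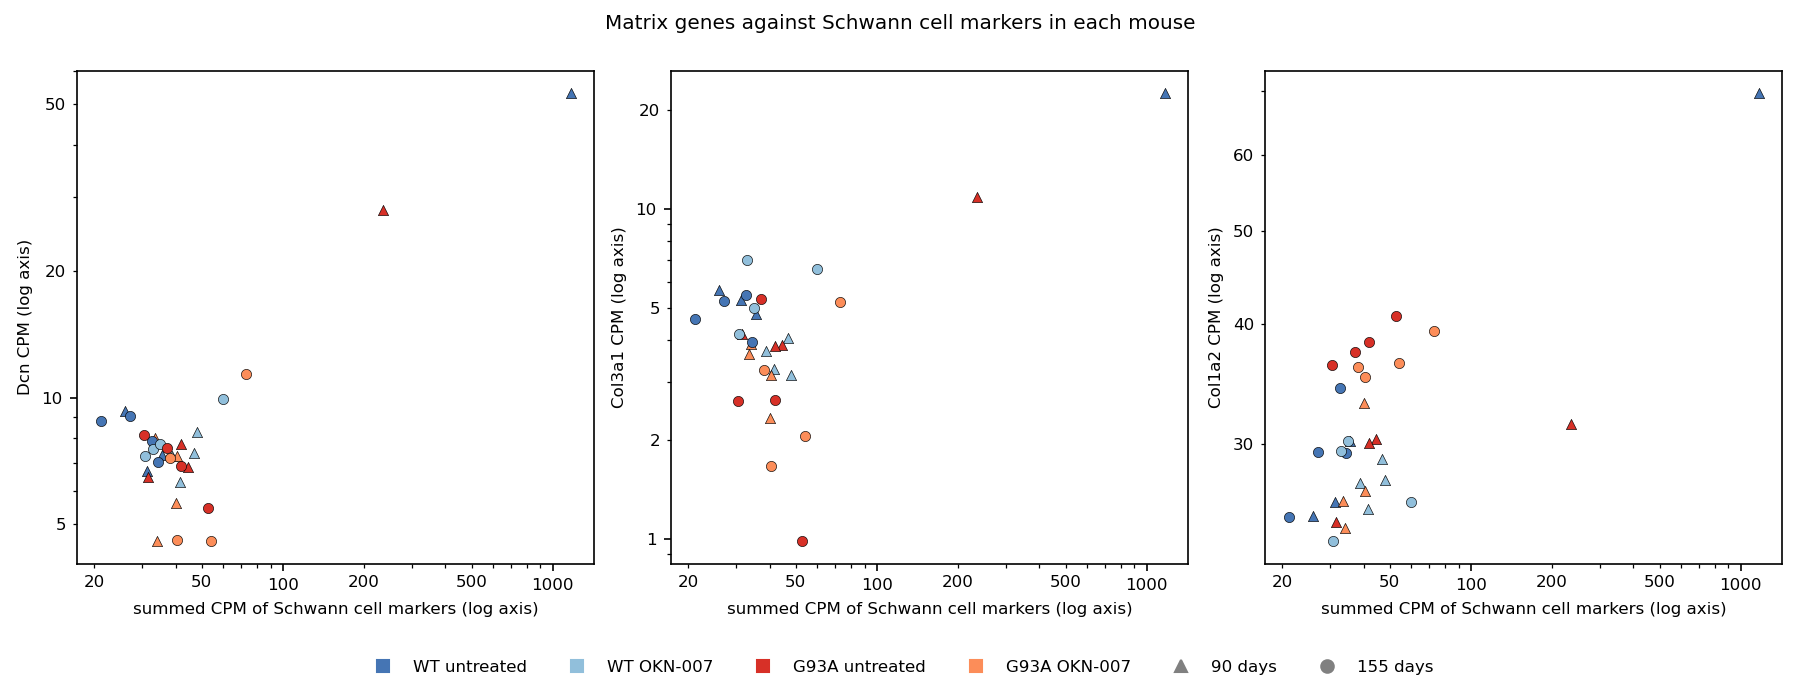
Dcn, Col3a1 and Col1a2 in CPM against the summed CPM of 6 Schwann cell markers (log axes) in each of the 32 mice, with triangles at 90 days and circles at 155 days. The points at 1160 and 234 CPM on the horizontal axis are WT untreated replicate 3 and G93A untreated replicate 10 of 90 days, and both are high in Dcn (53.1 and 28.0 CPM) and Col3a1 (22.4 and 10.9 CPM).

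OKN-007 changed no member past the threshold. In G93A mice of 155 days Fn1 was at 133.5 ± 25.0 CPM untreated and 133.7 ± 21.0 CPM treated, a log2 fold change of 0.01 ± 0.135 (adjusted p = 1.0). Over the 10 members the treatment's log2 fold changes in these mice ran from -0.09 to 0.33, with 0% of genes and 0 members passing, and 0 at an unadjusted p under 0.05. In WT mice of 155 days they ran from -0.29 to 0.39, with 0% of genes passing and 1 member, Col6a1, at an unadjusted p of 0.0263 (0.39 ± 0.162). The genotype by treatment interaction at 155 days was called for 0% of genes and 0 members, with 0 of them at an unadjusted p under 0.05 and Fn1 at -0.04 ± 0.194. DESeq2 also called 0 members in these comparisons. The standard errors, up to 0.42 for Lum in G93A mice, leave room for differences of moderate size in the low members, so a missed threshold does not show equal levels.

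At 90 days the treated WT mice were lower than the untreated in all 10 members, 5 of them with an unadjusted p under 0.05, as had 4.07% of all genes, while 0% of genes and 0 members passed after adjustment. Col3a1 was at 3.28, 3.14, 4.06 and 3.73 CPM in the treated mice, all below the untreated mice given above (1.02% of all genes lay wholly below), with a log2 fold change of -1.43 ± 0.44. Without the untreated library with Schwann cell transcripts, that change was -0.57 ± 0.302 (adjusted p = 1.0), and that of Col1a1 moved from -1.08 ± 0.289 to -0.58 ± 0.198. Without that library Col1a2 was at 0.01 ± 0.105 and Dcn at -0.09 ± 0.396, and without WT untreated replicate 4 Col6a1 was at 0.15 ± 0.184. The negative sign of Col1a2 and Col6a1 thus rested on single mice, while Col1a1, Col3a1 and Dcn stayed negative, Dcn within its SE. In G93A mice of 90 days OKN-007 was called for 0% of genes and 0 members, with 1 member at an unadjusted p under 0.05, Fn1 (32.96 ± 5.50 CPM treated, 40.56 ± 4.95 CPM untreated, log2 fold change -0.30 ± 0.122, adjusted p = 0.837). The interaction at 90 days was called for 0% of genes and 0 members, with Col4a1 (0.43 ± 0.166) and Col6a3 (0.64 ± 0.274) at an unadjusted p under 0.05. DESeq2 called 0 members in these treatment comparisons as well.

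The change between genotypes itself differed between the ages for 3 members. In a fit of all 32 mice over 19829 genes, the G93A change of untreated mice was larger at 155 than at 90 days by 1.89 ± 0.194 for Fn1 (adjusted p = 1.77e-08), 1.26 ± 0.38 for Col1a1 (adjusted p = 0.017) and 0.74 ± 0.264 for Col1a2 (adjusted p = 0.0432), on the log2 scale. These were 3 of 10 members, all upward, beside 21.2% of all genes in either direction. Averaged over treatments, the same members passed, with 1.93 ± 0.137, 0.94 ± 0.272 and 0.58 ± 0.187, beside 37.5% of all genes. Without the libraries with Schwann cell transcripts the untreated value of Col1a2 was 0.30 ± 0.146 (adjusted p = 0.161). The untreated call of Col1a2 was also lost with the caudal Hox covariate (0.46, adjusted p = 0.255), without the libraries with liver transcripts (0.74, adjusted p = 0.06), with a replicate block (0.62, adjusted p = 0.0763) and in 9 fits that each left out 1 mouse (adjusted p = 0.052 to 0.206), and the averaged one with the Hox covariate (0.34, adjusted p = 0.201). The untreated value of Col1a1 without the Schwann cell libraries was 0.94 ± 0.306 (adjusted p = 0.0332). Its call was lost with a replicate block (1.06, adjusted p = 0.0561), without WT untreated replicate 3 of 90 days (0.76, adjusted p = 0.0914) and without G93A untreated replicate 11 of 155 days (0.93, adjusted p = 0.0739). Without WT untreated replicate 4 of 155 days Col6a1 passed as well (0.76 ± 0.267, adjusted p = 0.0402). For Col4a2 the untreated change differed between the ages by 0.03 ± 0.203, and for Col4a1 by 0.31 ± 0.192, with neither past the threshold.

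Within genotypes, the members differed between ages as follows. In WT untreated mice 3 of 10 were lower at 155 than at 90 days, beside 24.9% of all genes in either direction, namely Col1a1 (-0.81 ± 0.269), Col4a2 (-0.40 ± 0.143) and Col6a1 (-0.65 ± 0.192). Without the libraries with Schwann cell transcripts only Col6a1 passed, and Dcn moved from -1.23 ± 0.467 to 0.08 ± 0.225. The call of Col6a1 was lost without WT untreated replicate 4 of 90 days, the highest mouse at 51.9 CPM (-0.47 ± 0.191, adjusted p = 0.0889). In G93A untreated mice 1 of 10 differed, beside 33.7% of all genes, and this was Fn1, higher by 1.72 ± 0.138 (adjusted p = 3.69e-11). Without the libraries with Schwann cell transcripts 4 members passed, Fn1 (1.75), Col1a1 (0.63 ± 0.218) and Col1a2 (0.42 ± 0.104) being higher at 155 days and Col4a2 (-0.47 ± 0.149) lower. Without the libraries with liver transcripts 3 passed, with Col3a1 (-1.46 ± 0.482) and Col4a2 (-0.50 ± 0.156) lower beside Fn1. G93A untreated replicate 10 of 90 days was the highest of its group for Col1a1 and Col1a2 and the lowest for Col4a2. G93A untreated replicate 12 of 155 days was the highest of its group for Col3a1 and Col4a2. Leaving these mice out enlarges such age differences by construction, so the added calls are no support for them.

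Mice also differed within their groups, and some members did so together. With each log2(CPM + 1) value centred on its group mean, Dcn and Lum, neighbours on chromosome 10, had a Pearson r of 0.875 over the 32 mice (permutation p = 5e-05, Spearman's rho 0.761). Col4a1 and Col4a2 had r = 0.799 (permutation p = 2e-05, rho 0.798). The permutation compares r with 0 only, and no background of other gene pairs was taken. Outside the list, Ankrd24 followed Col4a2 more closely (r = 0.916), while the closest gene to Col4a1 was at 0.794. Col1a1 with Col1a2 gave r = 0.678 (permutation p = 0.0152, rho 0.513), Col6a1 with Col6a3 r = 0.358 (p = 0.0946 by permutation) and Col1a1 with Col4a1 r = 0.198 (p = 0.351 by permutation). After Benjamini-Hochberg adjustment over these 5 pairs, the permutation p was 0.000125 for the first, 0.0001 for the second and 0.0253 for the third. Leaving out the 2 farthest mice gave 0.785, 0.741 and 0.448. Without the libraries with Schwann cell transcripts the type IV pair was at 0.803 and Dcn with Lum at 0.744, but Col1a1 with Col1a2 only at 0.249.

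As a description, the genes outside the list whose centred values followed each member most closely over the 32 mice were also read out. For Dcn these were Ogn (r = 0.924), a related proteoglycan, Prx (0.919) and Mlip (0.91). For Col1a2 they were Sptbn5 (0.888), Dhh (0.855), a Schwann cell ligand, and Gldn (0.846), and for Col3a1 Sptbn5 (0.809), Slc36a2 (0.807) and Ogn (0.806). For Lum they were Slc36a2 (0.794), Col28a1 (0.779) and Sptbn5 (0.775), and for Col1a1 Cavin1 (0.831), Egr2 (0.796) and Fxyd3 (0.793). None of the genes listed for Dcn, Col1a2, Col3a1 and Lum remained among the closest 3 when the libraries with Schwann cell transcripts were left out, while Cavin1 remained for Col1a1 with r = 0.854. For Col4a2 the closest were Ankrd24 (0.916), Tspoap1 (0.881) and the fibrillar collagen Col24a1 (0.876), and for Col4a1 Pnpla6 (0.794), Khnyn (0.769) and Mllt6 (0.76). For Fn1 they were Fmod (0.733), Arhgap25 (0.69) and Cd86 (0.685), for Col6a1 Akap8l (0.888) and Trim39 (0.873), and for Col6a3 Mn1 (0.727), Gm11611 (0.687) and Gm17249 (0.664).

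Other matrix genes were counted in 8 lists to place the members among their family, beside the 21.3% of all genes called higher and 18.2% called lower in the same comparison. Of the other fibrillar collagens 3 of 8 were higher and 1 lower in G93A untreated mice of 155 days, led by Col5a3 (138 ± 93 against 24.5 ± 8.49 CPM, log2 fold change 2.50) and Col27a1 (0.95), with Col24a1 lower (-0.70). Of the other basement membrane genes 8 of 21 were higher and 4 lower. In that list Nid2, a linker of laminin and type IV collagen, rose from 2.68 ± 0.481 to 11.7 ± 4.24 CPM (log2 fold change 2.13), while Lama1 (-0.62) and Lama3 (-0.56) were lower. None of the 6 other type VI and network collagens tested passed (0 higher, 0 lower). Of 15 fibril-associated and other collagens 7 were higher and 3 lower, with Col20a1 (2.20) and Col12a1 (1.75) at one end and Col28a1 (-1.51) and Col19a1 (-1.09) at the other. Col28a1 was low, at 0.257 ± 0.171 against 0.772 ± 0.171 CPM, and its call held in 20 of 25 alternative fits.

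The lists of proteoglycans, glycoproteins, modifying enzymes and receptors were read against the same shares of all genes. Of 11 other small leucine-rich proteoglycans tested 5 were higher and 0 lower: Fmod, fibromodulin, was at 81.8 ± 28.5 CPM in G93A untreated and 4.99 ± 0.698 CPM in WT untreated mice (log2 fold change 4.04 ± 0.227, adjusted p = 1.44e-10), and Omd was higher by 2.41. Omd was low, at 0.812 ± 0.275 against 0.147 ± 0.0556 CPM, the latter below 3 counts in the smallest library (0.152 CPM). Of 26 other matrix glycoproteins 16 were higher and 2 lower, among them Postn (periostin, 3.76) and Thbs2 (thrombospondin-2, 2.47) higher and Tnn (-1.25) and Ltbp4 (-0.29) lower. The call of Tnn held in 9 of 24 alternative fits and that of Ltbp4 in 15 of 26. Of 28 genes of collagen modification and crosslinking 20 were higher and 2 lower. The lysyl oxidases Lox (4.07 ± 2.19 against 0.255 ± 0.135 CPM, 3.94) and Loxl2 (21.4 ± 5.75 against 3.33 ± 0.761 CPM, 2.70), which crosslink collagen, led that list, while Adamts3 (-0.78) and Adamts2 (-0.54), which cleave procollagen, were lower. Of 24 matrix receptors 14 were higher and 1 lower, led by Itga5, the alpha chain of the fibronectin receptor (15.2 ± 4.92 against 1.44 ± 0.463 CPM, 3.41) and Itga2 (2.81), with Itgb4 lower (-0.43).

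In treated mice of 155 days the counts higher and lower were 3 and 1 of 8, 8 and 3 of 21, 0 and 0 of 6, 8 and 1 of 15, 7 and 0 of 11, 14 and 2 of 26, 18 and 2 of 28, and 15 and 2 of 24, in the same order of lists, beside 23.3% of all genes higher and 18.2% lower. The median log2 fold change in untreated mice was 0.17, 0.32, -0.30, 0.35, 0.42, 0.70, 0.74 and 0.68, beside -0.20 for the 10 members. In the treatment comparisons at either age, in the interaction, and between genotypes within a treatment at 90 days, 0 genes of these lists passed the quasi-likelihood test. In the 90-day comparison averaged over treatments 1 matrix glycoprotein of 25 was higher. Lama3, Col28a1, Col19a1 and Tnn, lower in untreated G93A mice, did not pass in treated mice (adjusted p = 0.32, 0.677, 0.0785 and 0.213).

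**Figure D5:**
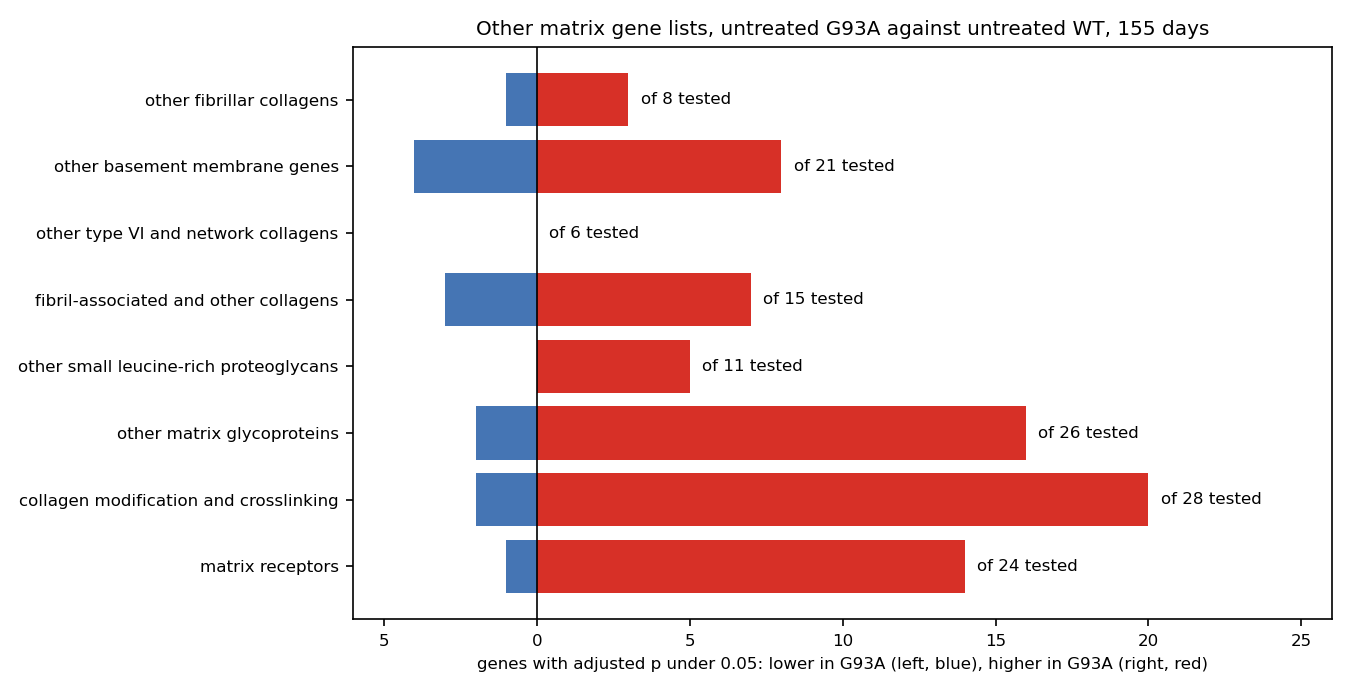
Number of genes with an adjusted p under 0.05 that were higher (right, red) or lower (left, blue) in G93A untreated than in WT untreated mice of 155 days, for 8 lists of other matrix genes, with the number tested beside each bar. Collagen modification and crosslinking had 20 of 28 higher and 2 lower, while the other type VI and network collagens had 0 of 6 in either direction.

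The remaining marker lists were counted for the same comparison, G93A untreated against WT untreated at 155 days. Of the 9 motor neuron markers 8 were lower, among them Chat, Slc18a3 and Slc5a7. Of the 8 oligodendrocyte markers 2 were higher and 0 lower, while Mbp and Mog did not pass. Schwann cell markers had 1 of 6 higher, skeletal muscle 1 of 5, bone and cartilage 3 of 7 higher and 2 lower, and blood, choroid plexus, liver and the rostral position genes 0 in either direction.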

How the data were processed

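Spinal cord RNA of 32 mice, 4 in each of 8 groups, had been sequenced as single libraries per mouse, and the deposited table holds raw counts, whole reads per gene. According to the study's methods, the authors extracted RNA with TRIzol, made libraries with a stranded mRNA kit, trimmed reads with Trimmomatic, aligned them with STAR to GRCm38 and counted them with HTSeq on GENCODE genes. The submitters' processing notes name FastQC, STAR, featureCounts and edgeR, and the builds hg38, GRCm39 and mm39 instead. The sources do not state the strand setting of the count, so overlapping genes, such as the starts of Col4a1 and Col4a2, may share reads. The annotation of GRCm38 paired 41218 of the 42524 genes (96.9%) with a symbol, and 307 of 308 listed genes were matched. Depth was 19701722 to 30138257 counts per mouse (median 26658755), which sets the counting error of low genes such as Lum.

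Counts were scaled with TMM factors and tested with edgeR 4.0.16 in R 4.3.3 (glmQLFit and glmQLFTest, filterByExpr, Benjamini-Hochberg adjustment over all genes tested, threshold 0.05). Each age was fitted with its 16 mice in 4 groups, and all 32 mice were fitted together for contrasts between ages. SE was taken from the fold change and the F statistic. The scripts were tested on simulated data. Within-group relations used log2(CPM + 1), with a pseudocount of 1, and 100000 permutations in Python 3.11.15 with scipy 1.17.1. Correlations were run for 5 pairs of members. The alternatives tried were the likelihood ratio test of edgeR, the Wald test of DESeq2 1.42.0, other size factors, no filter or at least 10 counts in every mouse, a caudal Hox covariate, fewer or more groups in the fit, a replicate block, libraries with liver or Schwann cell transcripts left out, and each mouse left out in turn. The alternative without the Schwann cell libraries was chosen after seeing the data. Named genes were all 10 members and, in each list, those called with the largest changes in each direction, except a few that are not reported here. The members and lists were chosen with earlier results of these data known. Samples of one group came from separate mice, and no libraries of a group agreed within counting noise (lowest chi-square per gene 3.57).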

Additional observations from a re-analysis of the deposited data

Results flagged for a closer look

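Of 80 gene and group combinations, each of 4 mice, 8 held a mouse far from the other 3 by Dixon's criterion, which chance alone gives in about 1 of 20. Most of these values belonged to the libraries with Schwann cell transcripts. In WT untreated replicate 3 of 90 days Col1a1 was at 20.2 CPM with the next mouse at 8.03 CPM, Col1a2 at 69.7 with 30.2, Col3a1 at 22.4 with 5.67, and Dcn at 53.1 with 9.28 CPM. In G93A untreated replicate 10 of 90 days Col3a1 was at 10.9 CPM with the next at 4.19 CPM, and Dcn at 28.0 with 7.74 CPM. The other cases were Col4a1 at 36.2 CPM in G93A OKN-007 replicate 16 of 155 days, where the next mouse was at 30.5 CPM, and Fn1 at 43.2 CPM in WT OKN-007 replicate 7 of 90 days, where the next was at 36.2 CPM.

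The change between G93A and WT differed between the ages for 3 members, by a test of the difference itself in a fit of all 32 mice (edgeR's quasi-likelihood test with Benjamini-Hochberg adjustment). In untreated mice it was larger at 155 days by 1.89 on the log2 scale for Fn1 (adjusted p = 1.77e-08), 1.26 for Col1a1 (adjusted p = 0.017) and 0.74 for Col1a2 (adjusted p = 0.0432). Averaged over treatments it was larger by 1.93 for Fn1 (adjusted p = 1.69e-12), 0.939 for Col1a1 (adjusted p = 0.00667) and 0.576 for Col1a2 (adjusted p = 0.0151). The calls of the type I chains were not stable. The untreated call of Col1a2 was lost with the caudal Hox covariate (adjusted p = 0.255), without the Schwann cell libraries (0.161), without the liver libraries (0.06), with a replicate block (0.0763) and in 9 fits that left out 1 mouse. That of Col1a1 was lost with the block (adjusted p = 0.0561) and in 2 such fits. The block joins mice that share only a number, and the Hox score is largely tied to genotype at 155 days. A loss with the block or the Hox covariate therefore cannot by itself show an unstable call.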

How the results depend on the processing

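For single members, 4607 alternative values kept direction and side of the threshold or moved by less than the spread, 86 moved further, 69 passed the threshold anew and 48 lost it, and no called value turned its direction. Members called at 90 days between untreated genotypes numbered 0, and 1 by DESeq2, 1 by edgeR's likelihood ratio test and 2 with no filter on low counts. Averaged over treatments these numbers were again 1, 1 and 2, and for OKN-007 in WT mice of 90 days 2 with no filter. With all 32 mice in 1 fit, 2 members passed at 155 days in untreated and 3 in treated mice. For 155 against 90 days in G93A untreated mice, where 1 passed, DESeq2, the likelihood ratio test, RLE size factors, total counts only, no filter, at least 10 counts in every mouse, and the replicate block each gave 2. Without the 3 liver libraries that number was 3, and without the 2 libraries with Schwann cell transcripts it was 4, each time with an extreme mouse left out. In WT untreated mice the latter left 1 member, and it took the correlation of Col1a1 with Col1a2 to 0.249. The cause was not tested.

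Leaving out 1 mouse at a time gave 1 to 4 members for the age difference of the untreated change, 1 to 5 for 155 against 90 days in WT untreated and 1 to 3 in G93A untreated mice. At 155 days it gave 3 to 6 in untreated mice, 4 to 6 in treated mice and 6 to 8 averaged over treatments. The treatment comparisons stayed at 0.

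Sample numbers are shared across ages, but same-numbered mice were not alike (r from -0.222 to 0.26, 3 of 16 over 0.1, and 3 of 16 closest to their own number), so they share only a number. With a replicate block the age difference of the untreated change was called for 1 member. Low counts limit Lum most, with 9 to 111 counts per mouse.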
